A study of Homo sapiens with 18 samples.

Results

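The comparison described here is the late interval of the etoposide arm in hTERT RPE-1 cells, a human retinal pigment epithelial line immortalised with telomerase reverse transcriptase. It sets the 3 libraries titled etoposide at time point 40 against the 3 titled etoposide at time point 20, which are 6 of the 18 libraries of the series, and they were chosen by these titles alone. All cells had been grown in 10% serum and held for 48 h in 0.1% serum, and the labels place them in the G0 or G1 phase. Etoposide, which stalls topoisomerase II in its complex with cleaved DNA, was given at 50 µM for 30 min, and triptolide at 10 µM followed. The labels give neither the unit of the time points nor whether triptolide had gone in by time point 0, so 0, 20 and 40 are used as names. The other groups drawn on are etoposide at 0 (3 libraries) and, with the same starvation and triptolide but no etoposide, the arm titled DMSO at 20 and 40 (3 libraries each). Replicates are numbered 1 to 3 in each group and are called independent, but no source used here says what separates them. The p-values therefore measure the spread that remains between the samples of the series after differences shared by a replicate number are removed. That spread may be technical.

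Triptolide blocks initiation by RNA polymerase II through XPB, the DNA translocase of the general factor TFIIH. Once synthesis stops, each mRNA falls at its own rate of decay, and messages of early-response genes, which cells make quickly and remove quickly, are known to be among the shortest lived. Many carry AU-rich elements in the 3′ untranslated region (UTR), to which the zinc finger proteins of the ZFP36 family bind to recruit deadenylation. Library-normalised counts show an mRNA relative to all others, so a fall shared by every mRNA would not appear in them.

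The 6 libraries held 7957691 to 11011097 counts each, and 3 counts, the floor of detection, equalled 0.275 to 0.374 CPM (a count per 1e6 counts of its library, after TMM normalisation). Libraries that share a replicate number deviated from their group means together in 45 of 45 pairs (r from 0.359 to 0.911), and the number therefore entered the test as a block. Replicate 2 of etoposide at 20 stood apart, with 17854 genes above 0 counts against 18344 to 20410 in the other libraries of the series. Its correlations of this kind ran from 0.359 to 0.559, against 0.488 to 0.911 for the pairs without it, so these ranges overlap. Replicate 3 also stood apart, since 44 protein-coding genes were at 0 in all of its libraries but over 5 CPM elsewhere. None of those 44 genes is among the changes below. The labelled cell type was checked by marker lists: 14 of 23 pigment epithelium markers averaged at least 1 CPM, among them PAX6 (66.0 to 86.5 CPM), MITF (27.4 to 61.0 CPM) and OTX2 (17.1 to 28.96 CPM). RPE65, the retinoid isomerase that defines the mature tissue, reached at most 0.221 CPM, and TYR, DCT, TTR and CDH1 were at 0. The pigment epithelium markers summed to 1925 to 3009 CPM at 20 and 1925 to 2935 CPM at 40. The largest parts of this sum were KRT8 (444 to 905 CPM), KRT18 (454 to 903 CPM), EZR (404 to 547 CPM) and CDH2 (196 to 274 CPM). RLBP1, TYRP1, LRAT and CRX reached at most 1.10, 1.38, 0.623 and 0.092 CPM. Of 12 fibroblast markers, 10 averaged at least 1 CPM. The 12 summed to 11189 to 13100.3 CPM at 20 and 12039 to 13612 CPM at 40. VIM, an intermediate filament gene of many cell types, alone gave 9964 to 11222 CPM. THY1 (387 to 565 CPM), TAGLN (489 to 1106 CPM) and FAP (167 to 203 CPM) were also present. LUM and COL3A1 reached at most 0.644 and 1.01 CPM. Blood markers, 10 of 13 of them at 0, summed to 0.249 to 1.44 CPM. The proliferation marker MKI67 stood at 252 to 405 CPM and TOP2A, the etoposide target of dividing cells, at 362 to 511 CPM in cells labelled G0 or G1.

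Between 20 and 40, 69 genes fell and no gene rose among the 14186 tested (0.486% lower, 0% higher). The test was the quasi-likelihood test of edgeR with Benjamini-Hochberg adjustment over all tested genes, from which every adjusted p of a single gene below comes. At an unadjusted p under 0.05 there were 541 lower and 160 higher genes. Their total of 701 is about the number that this threshold passes among 14186 genes when none changes. The counts at this threshold given below for other contrasts are smaller. Of the 69, 22 belong to the lists of early-response genes, 43 to any list and 26 to none. The lists were chosen with earlier results of these data known, so the shares of their members called here and below are descriptions. The 69 genes include transcription factors (MYC, JUN, KLF6, ID1), feedback inhibitors of signalling (SOCS3, SPRY2, DUSP6, NFKBIA), stress genes (DDIT4, GADD45B, DDIT3) and the decay factors ZFP36, ZFP36L1 and ZFP36L2. Their log2 changes ran from -2.68 to -0.45 with a median of -0.91, and 28 of them passed a 2-fold fall. All 69 were lower in each of the 3 same-numbered pairs, with pair medians of -0.86, -0.77 and -0.96. In 58 of them every value at 40 lay below every value at 20, an order that 3.11% of all tested genes showed, against 1.98% with the opposite order. Since the 69 were called from these same values, the agreement of the pairs and this order partly follow from the choice. DESeq2 called 91 genes, 68 of them shared with the 69 and 2 of them higher, and limma-voom called 63, of which 61 were shared. Without the replicate block 7 genes were called, all among the 69: ADM, ARRDC3, GADD45B, SOCS3, EIF4A1, ZFP36L1 and SNHG3. Leaving out replicate 2 of etoposide at 20 gave 77 calls, of which 56 were shared with the 69. Without replicate 3 in every group 21 genes were called, 20 of them among the 69. KLF6, BHLHE40, ID1, JUN, NFKBIZ, ZC3H12A, ZFP36 and ZFP36L2 were among those that then lost their call (adjusted p 0.052 to 0.985).

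**Figure D1:**
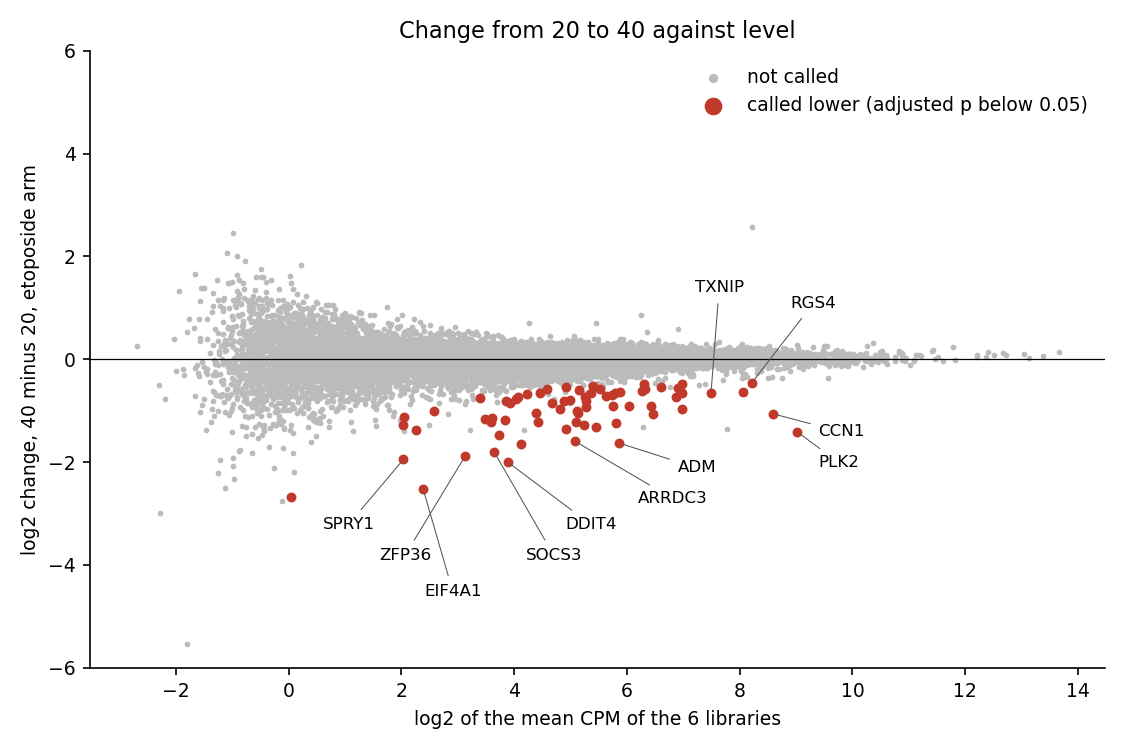
Log2 change from 20 to 40 in the etoposide arm (y axis) against the log2 of the mean CPM of the 6 libraries (x axis) for the 14186 tested genes, 1 point per gene. The 69 called genes are red, all below 0, and lie between -2.68 and -0.45, while the cloud of genes without a call widens towards low levels.

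The strongest evidence by p-value belonged to PLK2, a polo-like kinase gene induced by p53 and by serum (chr5:58453982-58460260, GRCh38). PLK2 stood at 685, 632 and 945 CPM in replicates 1 to 3 at 20 and at 243, 246 and 363 CPM at 40. Every library at 40 was below every library at 20, and the log2 change was -1.41 (SE 0.111, adjusted p = 3.15e-07), a 2.66-fold fall. The 3′ UTR of PLK2 holds the nonamer TTATTTATT, the core of the best known AU-rich element. Among the 63 protein-coding genes that fell, 12 carry this nonamer on the sense strand of their longest annotated 3′ UTR (19.05%), against 1162 of 12143 tested genes (9.57%), with similar median UTR lengths of 1391 and 1404 bases. Within the first 1000 bases of UTRs at least that long, the shares were 6 of 42 (14.3%) and 356 of 7413 (4.80%). The shorter pentamer ATTTA differed less, at 2.54 per 1000 bases of UTR in the genes that fell and 2.28 in all tested genes, with a median of 2 in the first 1000 bases of both. The sites of 6 genes that fell are shown because they include the decay factors that bind such elements, with the nonamer in capitals and 10 bases on each side:
PLK2: aataaactttTTATTTATTacagcccaaa
ZFP36: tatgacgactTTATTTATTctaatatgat
ZFP36L1: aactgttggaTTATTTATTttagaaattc
ZFP36L2: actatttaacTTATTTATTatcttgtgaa
DDIT3: gattgtacatTTATTTATTactgtcccta
SOX9: cttgctaaaaTTATTTATTttgtaaggag
These 29-base windows lie, in that order, at chr5:58454066-58454094 (minus strand), chr19:39409196-39409224 (plus), chr14:68788077-68788105 (minus), chr2:43223448-43223476 (minus), chr12:57516616-57516644 (minus) and chr17:72125498-72125526 (plus) on GRCh38. They were read from the GENCODE 29 transcripts, and a match is a description of the sequence, not a measured binding site.

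Genes of secreted signals are described first by role, then signalling inhibitors, transcription factors and stress genes. ADM, which encodes the vasodilator peptide adrenomedullin, stood at 108, 70.9 and 86.3 CPM at 20 and at 26.7, 32.7 and 25.8 CPM at 40, so that the highest library at 40 was below the lowest at 20. Its log2 change was -1.63 (SE 0.139, adjusted p = 7.15e-07). CCN1, a matricellular protein and target of YAP, stood at 464, 423 and 672 CPM at 20 and at 215, 209 and 324 CPM at 40. Those groups did not overlap either, and the log2 change was -1.06 (SE 0.125, adjusted p = 3.82e-05). CCN1 was the only called gene among 27 tested AU-rich cytokine, growth factor and matrix enzyme genes, of which 22 were negative (3.70% called, against 0.486% of all tested genes, median log2 change -0.24). IL1B (-0.63, adjusted p = 0.119), CCL2 (-0.53, adjusted p = 0.145) and CCN2 (-0.35, adjusted p = 0.149) did not pass.

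SOCS3, SPRY2, DUSP6, ARRDC3, TRIB1, SPRY1 and SMAD7 were among the feedback and signalling genes that fell. SOCS3, an inhibitor of JAK and STAT signalling, stood at 20.9, 18.7 and 18.7 CPM at 20 and at 5.06, 6.58 and 5.09 CPM at 40, with no overlap (log2 change -1.80, SE 0.185, adjusted p = 5.17e-06). SPRY2, an inhibitor of receptor tyrosine kinase signalling, went from 123, 137 and 97.3 CPM to 58.3, 75.7 and 40.5 CPM (log2 change -1.06, SE 0.102, adjusted p = 2.28e-06). DUSP6, the phosphatase of ERK, went from 51.0, 68.0 and 41.7 CPM to 21.3, 27.5 and 17.3 CPM (log2 change -1.28, SE 0.151, adjusted p = 3.82e-05). In SPRY2 and DUSP6 replicate 2 was the highest at both time points and replicate 3 the lowest, and in all 3 of these genes every value at 40 was below every value at 20. ARRDC3, an arrestin-domain protein of receptor trafficking, stood at 50.3, 47.0 and 54.1 CPM and then at 15.7, 15.2 and 19.5 CPM (log2 change -1.59, SE 0.148, adjusted p = 2.03e-06). TRIB1, a pseudokinase that directs C/EBP proteins to degradation, stood at 32.8, 23.5 and 22.4 CPM and then at 10.4, 6.16 and 8.53 CPM (log2 change -1.64, SE 0.213, adjusted p = 0.000151). SPRY1 fell by 1.95 on the log2 scale (SE 0.267) at 5.48 to 7.97 CPM at 20, and SMAD7, the inhibitor of TGF-beta signalling, by 0.65 (adjusted p = 0.0223), the latter called in 1 of the 6 leave-one-out fits. In all, 14 of 49 tested early-response signalling and feedback genes fell (28.6%, against 0.486% of all tested genes), 46 of 49 were negative, and their median was -0.43 against -0.01 over all tested genes.

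Transcription factors of the early response formed the second group, with 8 of 37 tested genes called lower (21.6%, against 0.486% of all tested genes), 29 negative and a median of -0.32. MYC, a basic helix-loop-helix regulator of growth, stood at 40.6, 33.9 and 56.9 CPM at 20 and at 17.9, 13.2 and 19.3 CPM at 40. No library at 40 reached the lowest at 20, and the log2 change was -1.36 (SE 0.136, adjusted p = 3.71e-06). IER2, an early-response nuclear protein counted in the signalling and feedback list, went from 92.5, 74.9 and 67.9 CPM to 37.5, 39.0 and 24.6 CPM (log2 change -1.24, SE 0.134, adjusted p = 1.07e-05). JUN, a subunit of AP-1, stood at 156, 164 and 106 CPM and then at 87.4, 139 and 46.5 CPM. Its groups overlapped, because replicate 2 at 40 lay above replicate 3 at 20, although each pair was lower at 40 (log2 change -0.74, SE 0.137, adjusted p = 0.00827). The JUN call was lost without replicate 3 of etoposide at 40 (adjusted p = 0.156) and also without replicate 1 at either time point or replicate 3 at 20 (0.0692 to 0.0899). FOS, the partner of JUN in AP-1, stood at 19.5, 15.4 and 5.23 CPM and then at 5.98, 8.35 and 1.55 CPM, and its log2 change of -1.38 did not pass (SE 0.393, adjusted p = 0.309). KLF6 (-0.91), BHLHE40 (-0.92), a repressor of the circadian clock, ID1 (-1.15), an inhibitor of basic helix-loop-helix factors, SOX9 (-0.58), KLF10 (-0.70) and SNAI2 (-0.998) were the other calls of the list, the last 3 called in 5, 2 and 1 of the 6 leave-one-out fits. CSRNP1 of the signalling and feedback list fell by 0.86 on the log2 scale but missed the threshold without replicate 1 of etoposide at 40 (adjusted p = 0.0509), and OTX2, a pigment epithelium regulator, fell by 0.58 on the log2 scale but lost its call without any one of 4 libraries (adjusted p 0.172 to 0.262). Over both early-response lists together, 22 of 86 tested genes fell (25.6%, against 0.486% of all tested genes), and 75 were negative. Since earlier results of these data were known when the lists were chosen, these shares are no test of early-response genes.

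**Figure D2:**
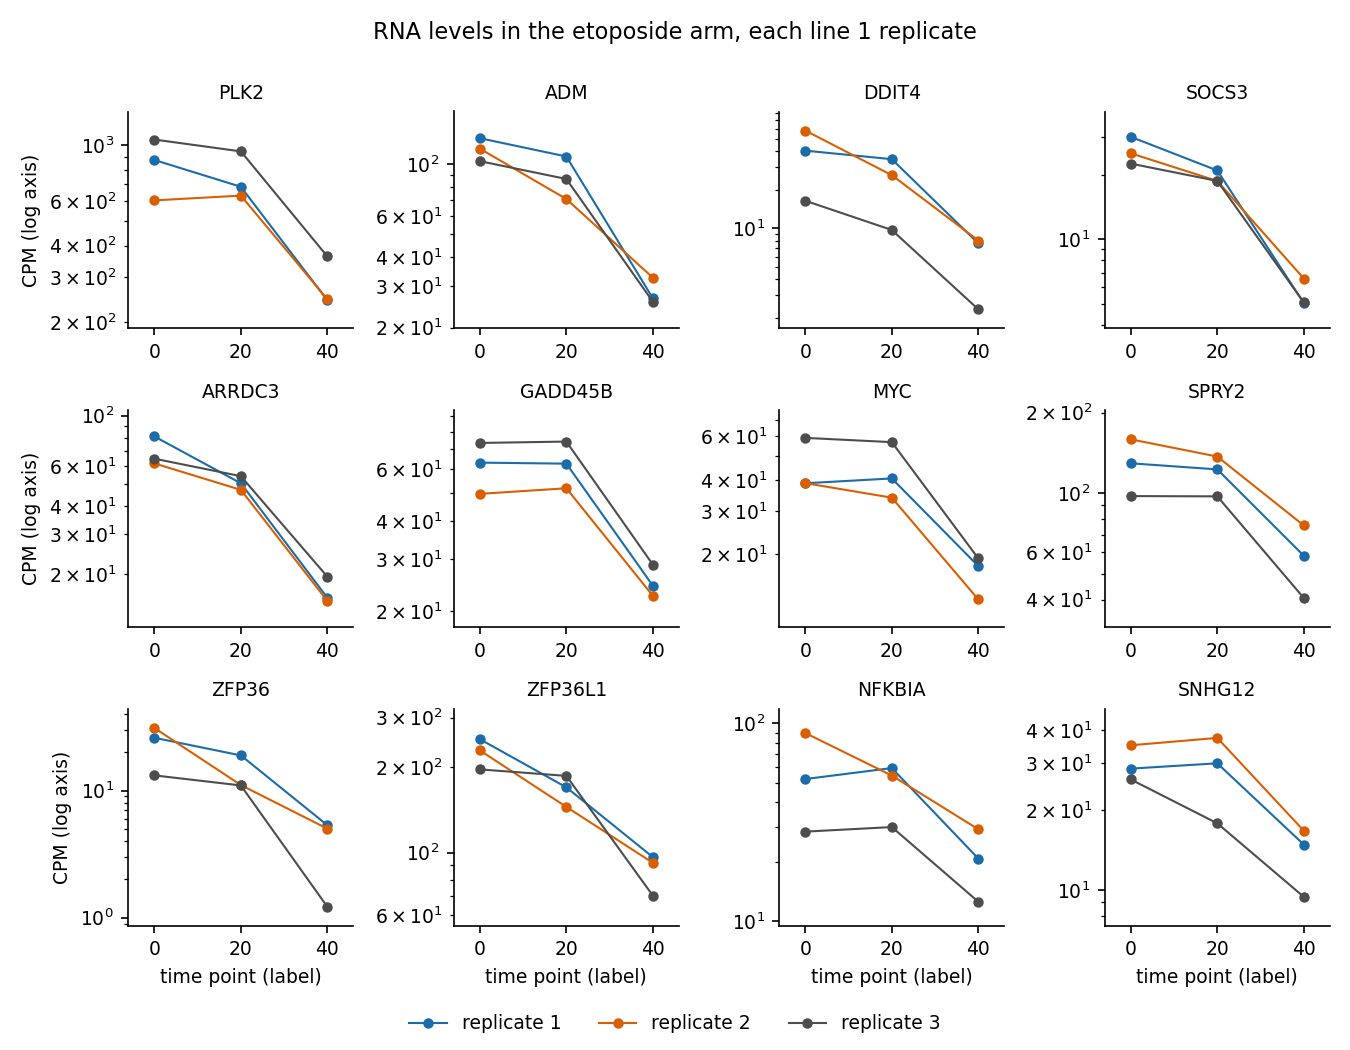
CPM on a log axis at time points 0, 20 and 40 of the etoposide arm for 12 genes, with 1 line per replicate number and no averaging. In all 12 panels each replicate is lower at 40 than at 20, whereas between 0 and 20 some lines are flat or rise, as in GADD45B.

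DDIT4 and GADD45B were the stress genes with the smallest p. DDIT4, an inhibitor of mTORC1, stood at 34.8, 26.1 and 9.72 CPM at 20 and at 7.64, 8.04 and 2.33 CPM at 40. Replicate 3 was the lowest at both time points, and the groups did not overlap (log2 change -2.0, SE 0.189, adjusted p = 2.03e-06). GADD45B, a stress-induced activator of MAP kinase signalling, stood at 62.5, 51.7 and 74.1 CPM and then at 24.4, 22.6 and 28.7 CPM, with a wide gap between the groups (log2 change -1.31, SE 0.124, adjusted p = 2.03e-06). Of 21 tested genes of the integrated stress response, the translational programme run by eIF2 phosphorylation, 4 fell (19.05%, against 0.486% of all tested genes): DDIT4, DDIT3 (-0.96), which encodes the factor CHOP, and both regulatory subunits of the eIF2 phosphatase, PPP1R15A (-0.55) and PPP1R15B (-0.52). PPP1R15B was called in 1 of the 6 fits that leave out 1 library and PPP1R15A in 2 of the 6. DDIT3 overlaps MARS1 and MBD6 on the other strand, and since the strand setting of the counting is not given, its reads cannot be told apart from theirs. Among 32 tested p53 target genes 2 fell, PLK2 and GADD45B (6.25%, against 0.486% of all tested genes), and the median was -0.04. The p53 target CDKN1A, the inhibitor of cyclin-dependent kinases, changed by -0.16 and did not pass, while CDKN1B, its family member, fell by 0.91 on the log2 scale (adjusted p = 0.000517). CDKN1B lost that call without replicate 3 in every group (adjusted p = 0.189). The mitotic regulators FBXO5, an inhibitor of the anaphase-promoting complex (-0.80), and WEE1, the kinase that restrains CDK1 (-0.48), fell as well, WEE1 in 2 of the 6 leave-one-out fits. None of 30 proliferation genes was called, but at 0.486% of all tested genes a list of 30 may hold no call. TOP2A (-0.02) and TOP2B (0.02), the targets of etoposide, stayed near 0.

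Among 21 tested NF-kB subunit and feedback genes 2 fell, NFKBIA and NFKBIZ (9.52%, against 0.486% of all tested genes). NFKBIA, the inhibitor that holds NF-kB in the cytoplasm, stood at 59.5, 54.5 and 29.9 CPM at 20 and at 20.7, 29.1 and 12.5 CPM at 40. The groups were separated only narrowly, by 29.1 against 29.9 CPM, yet each pair fell (log2 change -1.23, SE 0.162, adjusted p = 0.000161). NFKBIZ, a nuclear inhibitor-like protein of the same family, fell by 1.23 on the log2 scale (SE 0.17, adjusted p = 0.000275). Of the 21 genes 9 were negative (median 0.02, and -0.001 after scaling each library by its housekeeping and ribosomal protein genes). ZC3H12A, an endonuclease that cuts inflammatory mRNAs, fell by 1.18 (adjusted p = 0.0012), and MIR222HG, the host transcript of the microRNAs miR-221 and miR-222, went from 17.1, 22.9 and 18.1 CPM to 7.18, 5.22 and 8.86 CPM (log2 change -1.47, SE 0.231, adjusted p = 0.00161).

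ZFP36, ZFP36L1 and ZFP36L2, whose proteins bind AU-rich mRNAs, fell. ZFP36, also called tristetraprolin, stood at 18.9, 11.0 and 11.0 CPM at 20 and at 5.34, 5.01 and 1.22 CPM at 40. Its replicate 3 at 40 was the lowest value by far, the groups did not overlap, and the log2 change was -1.89 (SE 0.313, adjusted p = 0.0033). Without replicate 1 of etoposide at 20 it missed the threshold (adjusted p = 0.0562). ZFP36L1 stood at 170, 145 and 187 CPM and then at 96.3, 92.0 and 70.4 CPM (log2 change -0.96, SE 0.117, adjusted p = 5.67e-05), and ZFP36L2 at 78.5, 67.8 and 112 CPM and then at 44.4, 43.9 and 46.1 CPM (log2 change -0.90, SE 0.126, adjusted p = 0.000281). These 3 were the calls among 16 tested AU-rich element binding protein genes (18.75%, against 0.486% of all tested genes, median -0.09). None of 38 deadenylation, decapping and decay genes was called (median -0.03), nor any of 18 genes for m6A methyltransferases, readers and erasers. At 0.486% of all tested genes, lists of these sizes may hold no call. Of the 18 m6A genes 16 were negative (88.9%, against 51.4% of all tested genes, median -0.06). Removing replicate 2 of etoposide at 20 moved the m6A median to 0.01.

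Among 27 tested small RNA host genes 3 fell (11.1%, against 0.486% of all tested genes): SNHG12, SNHG3 and SNHG1. SNHG12, a host gene of small nucleolar RNAs, stood at 30.0, 37.3 and 17.8 CPM at 20 and at 14.8, 16.7 and 9.41 CPM at 40, with no overlap (log2 change -1.04, SE 0.144, adjusted p = 0.000275). SNHG3 fell by 0.80 on the log2 scale (adjusted p = 0.000161) and SNHG1 by 0.55 (adjusted p = 0.0302), the latter called in 1 of the 6 leave-one-out fits. SNHG12 and SNHG3 overlap TRNAU1AP and RCC1, so part of their reads may belong to those genes. Of the 27 genes 23 were negative, and the median was -0.29. ZNF genes, which encode C2H2 zinc finger proteins, had 4 calls among 431 tested (0.928%, against 0.486% of all tested genes) and 305 negative values (70.8%, against 51.4% of all tested genes), with a median of -0.13. The 4 were ZNF281, ZNF574, ZNF408 and ZNF708, called in 4, 1, 1 and 0 of the 6 leave-one-out fits, and none of them was called without replicate 3 in every group.

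Ribosomal protein, housekeeping, respiratory chain and matrix genes moved little relative to all other mRNAs, with list medians from -0.04 to 0.10. The stability of their mRNAs was not measured. None of 79 ribosomal protein genes, 27 housekeeping genes, 41 nuclear genes of the respiratory chain or 20 collagen and matrix genes was called. Matrix genes had a positive median (0.10) with 19 of 20 positive, and pair medians of 0.08, 0.17 and 0.06. The housekeeping median was 0.05 in the fit, but -0.01, 0.10 and -0.003 in pairs 1 to 3. The machinery on which triptolide acts showed no call among 20 TFIIH and P-TEFb genes or 11 polymerase II subunit genes. With 0.486% of all tested genes called, all these lists are small enough that they may hold no call. The TFIIH and P-TEFb median of -0.08 turned to 0.04 without replicate 2 of etoposide at 20.

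**Figure D3:**
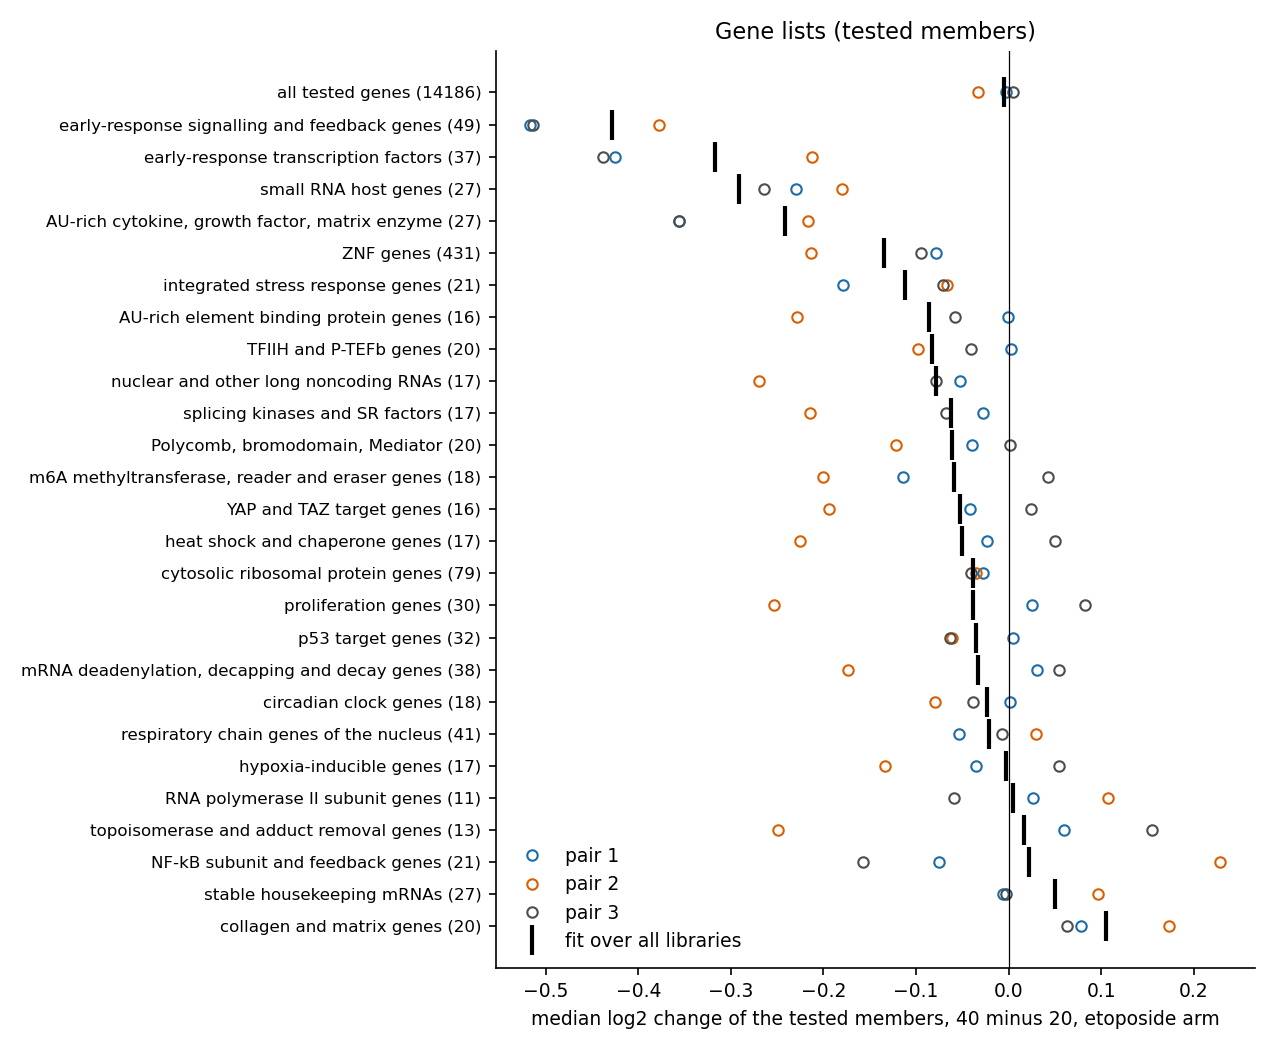
Median log2 change from 20 to 40 in the etoposide arm (x axis) over the tested members of each gene list (y axis, number of tested members in brackets), with a bar for the fit over all libraries and circles for the same-numbered pairs 1 to 3. Both early-response lists lie lowest, at -0.43 and -0.32 in the fit, and pair 2, which holds the library that stands apart, often departs from the other two pairs.

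Several called genes need care for their annotation. EIF4A1, the RNA helicase of translation initiation, had the largest fall among called genes with a mean of at least 5 CPM, from 10.5, 6.71 and 9.47 CPM to 1.93, 1.67 and 0.997 CPM (log2 change -2.52, SE 0.282, adjusted p = 1.8e-05). It shares its locus and strand with the read-through gene SENP3-EIF4A1, so these counts may hold only part of its reads. ENSG00000261136, annotated as antisense to FSIP1, fell by 2.68 from a mean under 2 CPM and was called in none of the 6 leave-one-out fits. ENSG00000275993, named SIK1B in GENCODE 29, is a near-identical copy of SIK1, and its change of -0.74 (adjusted p = 0.00207) cannot be assigned between the copies.

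The genes that fell had few exons. Their median was 3 exons, against 9 over all tested genes with an annotated 3′ UTR, and their median gene span was 6001 bases against 34152. Genes of 1 to 3 exons made up 36 of the 63 (57.1%), against 1668 of 12143 (13.7%). By exon number, 8 of 231 single-exon genes fell (3.46%), 28 of 1437 with 2 or 3 exons (1.95%), 22 of 4934 with 4 to 9 (0.446%) and 5 of 5541 with 10 or more (0.0902%). Median log2 changes of all genes in these classes, called or not, were -0.13, -0.05, -0.01 and 0.01. Exon number and gene length were not set against membership in the early-response lists. The separate parts of exon number, gene length and list membership in the result were not tested.

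**Figure D4:**
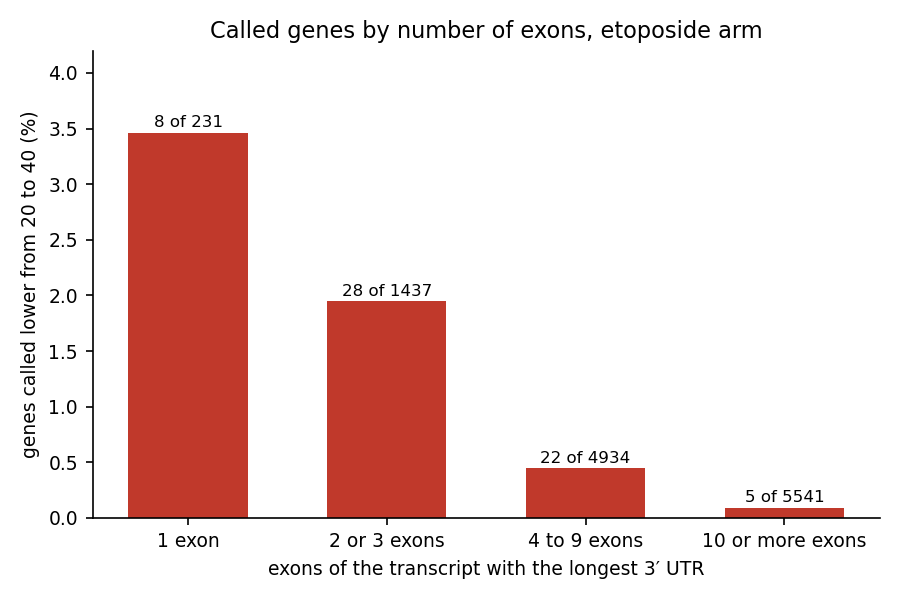
Share of tested genes called lower from 20 to 40 in the etoposide arm (y axis, percent, from 0) by the number of exons of the transcript with the longest 3′ UTR (x axis), with the counts above the bars. The share steps down from 3.46% for single-exon genes to 0.0902% for genes with 10 or more exons.

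The earlier interval of the same arm, from 0 to 20, gave no call among 14186 genes (0% lower, 0% higher) with edgeR, 1 with DESeq2 (EIF4A1), and 387 genes at an unadjusted p under 0.05. It shares the libraries at 20 with the late interval, so a high or low value there moves both changes in opposite directions. Of the 69 genes, 56 were negative from 0 to 20 as well, with a median of -0.15 against -0.91 later. Over all tested genes 7051 of 14186 were negative from 0 to 20, with a median of 0.001. Since the 69 were chosen by their late fall, the larger late values are a description and carry no evidence of a difference. PLK2 changed by -0.15 and then by -1.41, MYC by -0.06 and then by -1.36, and GADD45B by 0.02 and then by -1.31. For ADM the values were -0.39 and -1.63, and for DDIT4 -0.70 and -2.0. The difference between both changes was tested in the same model, and 6 genes passed, all with the larger fall in the late interval (0.0423% of those tested, and 423 at an unadjusted p under 0.05). They were PLK2 (difference -1.26, SE 0.184, adjusted p = 0.0125), GADD45B (-1.33, SE 0.204, adjusted p = 0.0125), MYC (-1.30, SE 0.222, adjusted p = 0.0386), CCN1 (-1.19, SE 0.209, adjusted p = 0.0386), SPRY2 (-0.96, SE 0.171, adjusted p = 0.0386) and ADM (-1.24, SE 0.226, adjusted p = 0.0466). The count was 0 without the replicate block, 8 without replicate 2 of etoposide at 20 (CCN1 was then not called, adjusted p = 0.312), 3 without replicate 1 of etoposide at 0 or at 40 or without replicate 2 of DMSO at 0, and 0 without replicate 2 or 3 of etoposide at 0, replicate 1 or 3 at 20, or replicate 3 at 40.

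In the DMSO arm 110 genes fell over the same interval and none rose (0.775% lower, 0% higher). Of the 69 genes, 58 were called there too, which is 84.1% of the 69 and 52.7% of the 110. All 69 were negative in that arm, against 7162 of all 14186 tested genes. The arms share no library. The median over the 69 was -0.91 with etoposide and -1.16 with DMSO, and 47 of the 69 fell further with DMSO. Over all tested genes, the late change was lower with DMSO than with etoposide in 6865 of 14186. ADM changed by -1.63 and by -2.24, SOCS3 by -1.80 and by -2.41, IER2 by -1.24 and by -1.73, and ARRDC3 by -1.59 and by -1.55 in the etoposide and DMSO arms. The difference between the arms, tested as an interaction, passed for no gene (0% lower, 0% higher, smallest adjusted p = 0.844), with 544 genes at an unadjusted p under 0.05 and 0 calls with DESeq2 or limma-voom. With a difference of 0.61 for both ADM and SOCS3, no different fall was shown for either. BTG2, an antiproliferative p53 target, showed the widest gap among the genes fixed as checks. With etoposide it stood at 9.07, 9.18 and 2.99 CPM at 20 and at 7.64, 6.26 and 2.21 CPM at 40. With DMSO it stood at 2.20, 3.24 and 2.32 CPM and then at 0.192, 0.880 and 0.422 CPM. BTG2 with DMSO at 40 was thus below the floor of 3 counts in replicate 1 (0.287 CPM) and near it in replicate 3 (0.316 CPM). Replicate 2 lay above its floor of 0.264 CPM. Its changes were -0.39 (adjusted p = 1) and -2.36 (adjusted p = 0.013), and the difference of 1.97 (SE 0.584) did not pass (adjusted p = 0.844).

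**Figure D5:**
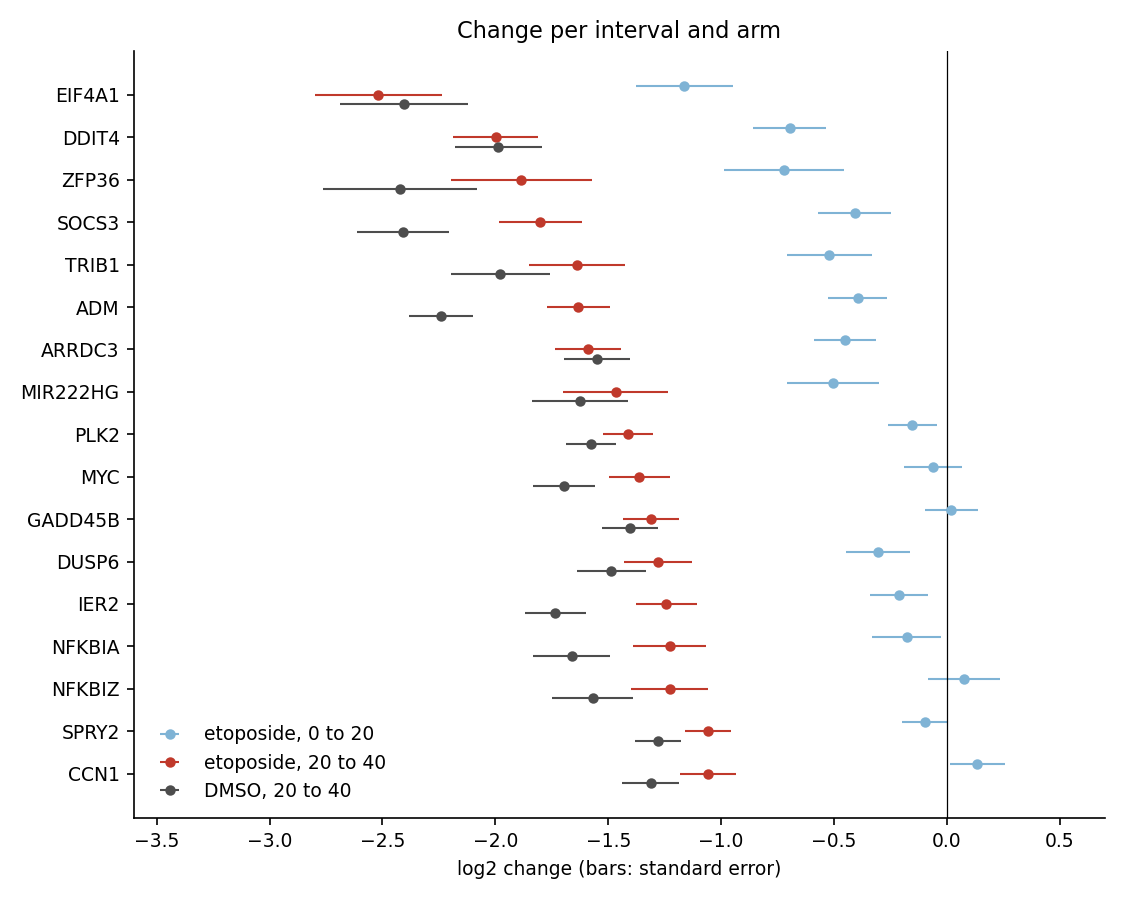
Log2 change (x axis, bars are standard errors) of 17 genes (y axis) in the etoposide arm from 0 to 20 and from 20 to 40 and in the DMSO arm from 20 to 40. The genes were chosen by their late fall or by the difference test, so a late change below the early one follows from the choice. Their late changes with etoposide run from -2.52 for EIF4A1 to -1.06 for CCN1, and the late changes of both arms lie close together or further from 0 with DMSO.

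No gene passed in the upward direction with edgeR. Genes higher in all 3 pairs with a mean of at least 5 CPM over the 6 libraries were ranked by p. The 8 with the smallest p were PER2, a component of the circadian clock (0.72, adjusted p = 0.427), PRRT2 (0.63), NPTXR (0.40), CNOT3, a subunit of the CCR4-NOT deadenylase complex (0.46), PAGR1 (0.67), KCNAB2 (0.53), TONSL (0.40) and NR4A1, an early-response nuclear receptor (0.51, adjusted p = 0.547).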

How the data were processed

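The authors deposited 1 file per library with raw, unnormalised read counts per gene. Per the submitters' processing notes they used bcl2fastq, HISAT2 and featureCounts on GRCh38 (hg38). Versions, annotation release, strand setting and handling of multiply matching reads were not given in the sources used here. Per the labels' protocols, RNA from RNeasy columns was treated with TURBO DNA-free and made into TruSeq Stranded mRNA libraries.

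From these counts, 18 libraries were fitted in 1 model of the 6 groups with the replicate number as a block, using the robust quasi-likelihood test of edgeR 4.0.16 (R 4.3.3), TMM factors (0.978 to 1.02) and the default filter, which kept 14186 genes holding 99.2% to 99.9% of the counts. Genes were called at a Benjamini-Hochberg adjusted p below 0.05. All groups entered so that the spread was estimated from more than 2 groups of 3. SE values were derived from the F statistic. DESeq2 1.42.0 and limma-voom (limma 3.58.1) were alternatives, as were other scalings and filters, no block, the compared groups alone, and leaving out libraries. Of 58051 identifiers, 57447 matched GENCODE 29, which gave positions, gene types, exons and 3′ UTRs, and 41944 received a symbol. CPM values are TMM-normalised and not divided by gene length, so levels are compared only within a gene.

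The replicate numbers were taken from the labels. Every same-numbered pair correlated over 0.1 in its deviations from the group means (lowest 0.359, and 0.736, 0.559 and 0.883 for 20 against 40 in replicates 1 to 3), and 18 of 18 libraries correlated best with a library of their own number. No libraries of 1 group agreed within sampling noise (chi-square per degree of freedom at least 9.08).

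The comparison and the gene lists were chosen with earlier results of these data known. Named genes were up to 15 called genes per direction, taken by size of change. They had a mean of at least 5 CPM and 1 sign in all 3 pairs. A direction with fewer than 8 calls was filled up to 8 by the smallest p under the same level and sign rule. Up to 4 members of each list, up to 5 genes per difference test and 9 check genes were also named. Other called genes named in the text were chosen after their values were seen.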

Additional observations from a re-analysis of the deposited data

Results flagged for a closer look

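In the etoposide arm 6 genes changed differently in the late interval from 20 to 40 than in the early one from 0 to 20, by the edgeR test of the difference itself. The difference, late minus early on the log2 scale, was -1.26 for PLK2, -1.33 for GADD45B, -1.30 for MYC, -1.19 for CCN1, -0.96 for SPRY2 and -1.24 for ADM. Both intervals share the 3 libraries at 20. Over the 22 alternatives, PLK2 and GADD45B were each called in 13, MYC in 9, CCN1 and SPRY2 in 8 each and ADM in 7. The differences stayed negative in all of them, the widest range being -1.63 to -0.94 for ADM. With scaling by housekeeping and ribosomal protein genes, adjusted p ranged from 0.375 for PLK2 to 0.577 for SPRY2. No outlier test was run, since each group holds 3 samples.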

How the results depend on the processing

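The late count of 69 calls in the etoposide arm was 7 without the replicate block, 8 without the block and replicate 2 of etoposide at 20 (an alternative added after seeing the data), 34 with the compared groups only and 105 without a filter on low counts (4 higher). It was 21 without replicate 3 in every group, and leaving out 1 library gave 37 to 77. The lowest counts came without replicate 1, 3 or 2 of etoposide at 40 (37, 38 and 45) and without replicate 3 at 20 (42), and 33 genes were called in all 6 fits that each left out 1 of the libraries compared. Scaling to housekeeping and ribosomal protein genes gave 51 calls and a median of all genes of -0.03.

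The difference of late and early change, 6 calls, gave 0 without the replicate block, alone or together with leaving out replicate 2 of etoposide at 20, and 0 with housekeeping scaling, 19 without a filter, 10 with DESeq2, 2 with limma-voom and 3 with the compared groups only. It ranged from 0 to 11 over fits that left out a library or a replicate number, 11 being the count without replicate 2 in every group (added after seeing the data). The early interval, 0 calls, gave 7 without a filter, 1 with DESeq2 and 3 with the compared groups only. The difference between the arms, 0 calls, gave 6 without a filter. Among these, NAP1L4 stood at 0.498 to 28.6 CPM in replicate 3 against 145 to 199 CPM elsewhere, and BEST1 ranged from 0.516 to 2455 CPM in replicates 1 and 2. The late interval of the DMSO arm, 110 calls, gave 31 without the block, 49 with the compared groups only, 51 without replicate 3 in every group, 73 without replicate 2 in every group (added after seeing the data), and 51 to 115 over fits that left out libraries, with 72 and 64 without replicate 2 of DMSO at 20 and at 40.

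The median of TFIIH and P-TEFb genes, -0.08, turned to 0.0415 without replicate 2 of etoposide at 20 and was 0.0025 in pair 1. Of the other values for single genes and lists, 2482 stayed on their side of the threshold or within the spread, 146 lost and 13 gained a call, and 46 moved. The causes of these changes were not tested. Depth limited genes near the floor, and 5 of the 69 had a mean under 5 CPM.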
